A study of Sus scrofa with 6 samples.

Results

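The genes described here are those of the cell division cycle: the cyclins and kinases that move a cell towards DNA replication, the proteins that copy DNA, and the proteins that enter and carry out mitosis. They were chosen by name. Of 36 listed symbols, 21 were found in the symbol column of the deposited gene table, which holds 22861 genes, and 20 of these had enough counts to be tested. The rule that picks them reads names and no measured value, although the list itself was drawn up with earlier results of these data known.

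A dividing cell first builds up D-type cyclins, which activate the kinases CDK4 and CDK6, then cyclin E with CDK2, and these kinases release the genes for DNA replication. The MCM helicase and the sliding clamp PCNA serve replication, and cyclins A and B with their kinase, the Aurora kinases, spindle motors and kinetochore proteins serve mitosis. Most smooth muscle cells of a normal adult aorta are at rest, while smooth muscle cells and macrophages can both divide in an atherosclerotic plaque.

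RNA of abdominal aorta was sequenced in 6 pools from 2 groups of pigs. The lesion group held tissue with atherosclerotic lesions from 11 animals that the labels call WMS FH (Wisconsin Miniature Swine with familial hypercholesterolaemia), combined into 3 pools. The lesion-free group held aorta without lesions from 11 animals called WMS normal, also combined into 3 pools. No treatment, age, sex or diet is given per group in the sources used here. Every lesion pool came from the FH line and every lesion-free pool from the normal line, so lesion and line cannot be told apart. The labels do not say how many animals entered each pool, so the pool is the replicate, and every p below measures the spread between pools. Pools are named by their label number, with 1, 2 and 3 for lesion and 4, 5 and 6 for lesion-free tissue.

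The pools held between 4650176 counts (lesion pool 1) and 11442433 counts (lesion pool 3). Levels are given as CPM, the count of a gene relative to the scaled size of its library, and 3 counts correspond to 0.577 CPM in lesion pool 1 and to 0.268 to 0.36 CPM in the other pools. Differences are log2 folds from limma, lesion minus lesion-free. A gene is called when its Benjamini-Hochberg adjusted p over the 11673 tested genes is under 0.05. Over all tested genes, 113 were called higher and 9 lower in lesion pools, together 1.05% of them. Macrophage markers stood far higher in lesion pools, with 8 of 10 tested markers called, and smooth muscle markers were the most abundant marker list in every pool.

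No cell cycle gene was called in either direction by limma, and none was called under any of the 15 alternative settings. The replication and mitosis genes found by symbol nevertheless stood on the higher side in lesion tissue, with a fitted log2 fold above 0 in all 14 that were tested. The cyclins and kinases of the growth phase before replication showed no common direction. Of the 14, CCNA2, CCNB1, CENPF and KIF11 had 0 or 1 count in lesion-free pool 5. They had enough counts to be tested only together with their lesion pools, which favours a fold above 0. Of the listed mitosis genes reached by identifier, TPX2 had a log2 fold of -0.07 and BUB1B one of 1.14. Among further genes described below, 14 replication genes were fitted higher and 9 lower, and 25 mitosis genes higher and 5 lower. The 20 tested genes had a median log2 fold of 0.88, against -0.0022 for all tested genes, and its range was 0.47 to 1.11 when 1 pool was left out, lowest without lesion-free pool 5. In lesion pools, 16 of 20 (80%) had a fitted log2 fold above 0, where 49.9% of all tested genes did. A log2 fold of 1 or more was fitted for 8 of 20 (40%), against 12.9% of all tested genes, and CCNA2, CCNB1, CENPF and KIF11 are among the 8. The pool values of the groups did not overlap, with lesion higher, for 5 of 20 (25%), against 10.5% of all tested genes. MCM2 is among the 5, and its groups overlapped when a further entry, described below, was added. Groups separated with lesion lower were seen in 0 of 20, against 1047 of the 11673 tested genes. An unadjusted p under 0.05 with lesion higher was reached by 4 of 20 (20%), against 6.49% of all tested genes. With lesion lower it was reached by 0 of 20, against 484 of the 11673 tested genes. These shares describe genes that share pools and tend to move together within a pool, so they are not 20 separate observations, and no test was made over them.

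**Figure D1:**
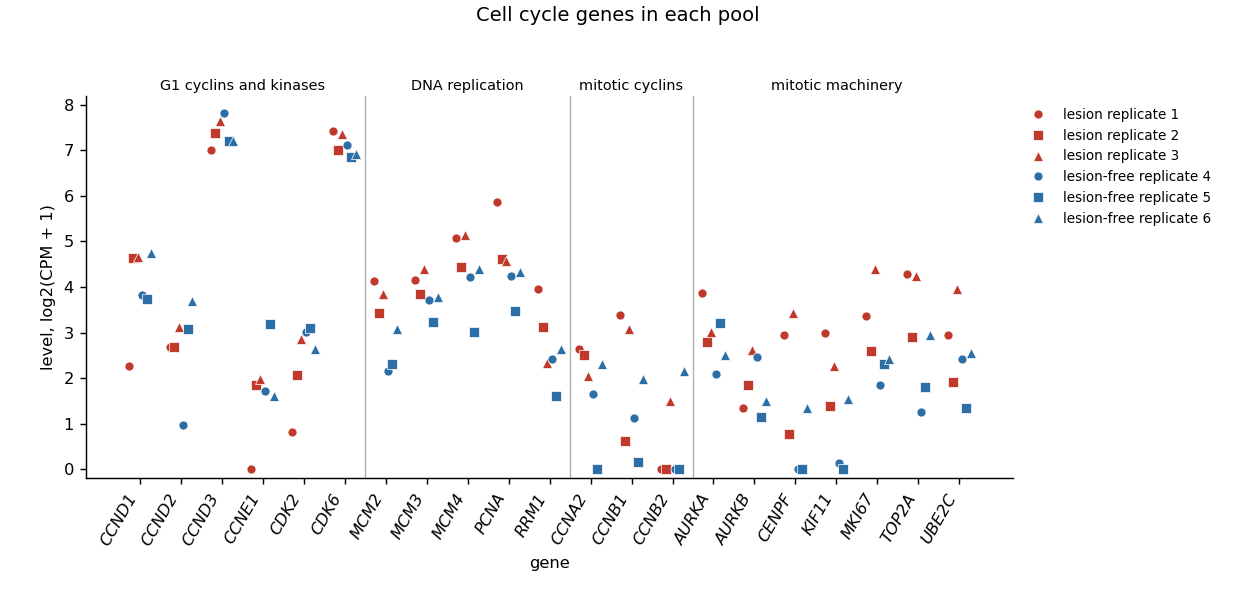
The vertical axis gives the level of each gene as log2(CPM + 1) and the horizontal axis the 21 genes, ordered by role; each point is 1 pool, red for lesion and blue for lesion-free. The red points lie above the blue ones for MCM2, MCM3, MCM4, PCNA and MKI67, while colours mix among the cyclins and kinases on the left.

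The replication genes gave the most even picture. MCM2, a subunit of the helicase that opens DNA at replication origins, stood at 16.6, 9.74 and 13.3 CPM in lesion pools 1, 2 and 3 and at 3.45, 3.96 and 7.43 CPM in lesion-free pools 4, 5 and 6. The lowest lesion pool was above the highest lesion-free pool. The mean level was 13.2 ± 3.41 CPM in lesion against 4.95 ± 2.16 CPM in the lesion-free group (SD, n = 3 each). The fitted log2 fold was 1.36 (SE 0.58, 95% interval 0.13 to 2.60), a 2.57-fold difference, and it missed the threshold with an adjusted p of 0.411 (limma).

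MCM4, another subunit of the same helicase, stood at 32.7, 20.6 and 34.4 CPM in lesion pools 1, 2 and 3 and at 17.7, 7.08 and 20.04 CPM in lesion-free pools. The groups were separated by a narrow margin, between lesion pool 2 and lesion-free pool 6. Means were 29.2 ± 7.54 against 14.9 ± 6.91 CPM (SD, n = 3 each). The log2 fold of 1.00 (SE 0.44, 95% interval 0.07 to 1.94) had an adjusted p of 0.426 (limma). MCM3, also of this helicase, stood at 16.7, 13.4 and 20.1 CPM in lesion pools and at 12.2, 8.39 and 12.8 CPM in lesion-free pools. The groups again did not overlap, but the margin was small, and the log2 fold of 0.57 (95% interval -0.31 to 1.45) had an adjusted p of 0.648 (limma).

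PCNA, the clamp that holds DNA polymerase on its template, stood at 57.2, 23.4 and 22.9 CPM in lesion pools 1, 2 and 3 and at 17.8, 10.2 and 19.0 CPM in lesion-free pools. Lesion pool 1 was far above the rest, and the other lesion pools lay just over the lesion-free range. The mean level was 34.5 ± 19.6 CPM in lesion against 15.7 ± 4.79 CPM in the lesion-free group (SD, n = 3 each). The log2 fold was 0.92 (SE 0.43, 95% interval 0.001 to 1.84) with an adjusted p of 0.470 (limma). RRM1, the large subunit of the enzyme that makes deoxynucleotides, stood at 14.4, 7.78 and 4.02 CPM in lesion pools and at 4.32, 2.04 and 5.19 CPM in lesion-free pools. Here lesion pool 3 lay inside the lesion-free range, and the log2 fold was 0.83 (95% interval -0.75 to 2.41). Over the 5 replication genes the median log2 fold was 0.92, all 5 were fitted higher and 0 were called. Groups did not overlap in 4, where 10.5% of all tested genes were so with lesion higher. An unadjusted p under 0.05 was reached by 3, where 6.49% of all tested genes did so with lesion higher. MCM2 is in both counts, and its difference was smaller and its groups overlapped when a further entry, described below, was added.

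The cyclins of mitotic entry were low and uneven. CCNA2, cyclin A2, which acts in replication and at entry to mitosis, stood at 5.20, 4.65 and 3.11 CPM in lesion pools 1, 2 and 3 and at 2.16, 0 and 3.97 CPM in lesion-free pools. The groups overlapped, with lesion-free pool 6 above lesion pool 3. CCNB1, cyclin B1, which activates the mitotic kinase, had 49, 6 and 82 counts in lesion pools and 11, 1 and 29 counts in lesion-free pools. Lesion pools 1 and 3 were above every lesion-free pool, and lesion pool 2 was under lesion-free pools 4 and 6. CCNB2, cyclin B2, was seen in 2 pools only, with 20 counts in lesion pool 3 and 34 counts in lesion-free pool 6, and was too low to test. The fitted log2 folds were 2.20 (95% interval -0.82 to 5.21) for CCNA2 and 1.55 (95% interval -2.02 to 5.12) for CCNB1, so the data are compatible with differences in either direction. Without lesion-free pool 5 they were 0.43 and 0.45, and over the pools left out in turn they reached 3.41 (CCNA2, without lesion-free pool 6) and 3.12 (CCNB1, without lesion pool 2).

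Of the mitotic machinery, TOP2A had the smallest p of all members. TOP2A, the topoisomerase that untangles replicated DNA before chromosomes part, stood at 18.5, 6.52 and 17.9 CPM in lesion pools 1, 2 and 3 and at 1.40, 2.52 and 6.71 CPM in lesion-free pools. Lesion pools 1 and 3 were well above the lesion-free range, while lesion pool 2 was level with lesion-free pool 6. Means were 14.3 ± 6.74 against 3.55 ± 2.80 CPM (SD, n = 3 each). The log2 fold was 2.01 (SE 0.85, 95% interval 0.20 to 3.83), a 4.04-fold difference, with an adjusted p of 0.410 (limma). Without lesion pool 2 it was 2.60 with an adjusted p of 0.163, the smallest that any of the 20 genes reached under any setting, and over the pools left out in turn the log2 fold ranged from 1.45 to 2.67.

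MKI67 encodes Ki-67, the protein stained in pathology to mark cycling cells. It had 48, 56 and 218 counts in lesion pools 1, 2 and 3 and 24, 33 and 43 counts in lesion-free pools, which equal 9.24, 5.00 and 19.9 CPM against 2.59, 3.96 and 4.37 CPM. The groups did not overlap, and lesion pool 3 stood well above every other pool. The mean level was 11.4 ± 7.69 CPM in lesion against 3.64 ± 0.933 CPM in the lesion-free group (SD, n = 3 each), and the log2 fold of 1.45 (SE 0.79, 95% interval -0.23 to 3.13) had an adjusted p of 0.538 (limma). Without lesion pool 3 the log2 fold of MKI67 was 0.74.

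KIF11, the motor that pushes spindle poles apart, had 36, 18 and 42 counts in lesion pools and 1, 0 and 19 counts in lesion-free pools. CENPF, a protein of the outer kinetochore, had 35, 8 and 107 counts in lesion pools and 0, 0 and 15 counts in lesion-free pools. Both genes were near absent from lesion-free pools 4 and 5, and in both lesion-free pool 6 stood above lesion pool 2 in CPM. Their fitted log2 folds of 3.45 (SE 1.85, 95% interval -0.51 to 7.40, adjusted p 0.529) and 4.20 (95% interval -0.69 to 9.10, adjusted p 0.540) from limma rest on pools at or near 0 and depend on the 0.5 added to each count. On the scale of log2(CPM + 1), CENPF had a log2 fold of 1.94 and KIF11 one of 1.65. With 1 pool left out, the voom log2 fold lay between 2.36 and 4.93 for KIF11 and, in the 3 cases where it was still tested, between 3.34 and 5.68 for CENPF.

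The other mitotic genes differed less. AURKA, the Aurora kinase of the spindle poles, stood at 13.7, 5.90 and 7.13 CPM in lesion pools and at 3.24, 8.27 and 4.68 CPM in lesion-free pools. AURKB, the Aurora kinase of the centromere, stood at 1.54, 2.59 and 5.12 CPM in lesion pools and at 4.53, 1.20 and 1.83 CPM in lesion-free pools. UBE2C, which hands ubiquitin to the anaphase-promoting complex, stood at 6.74, 2.77 and 14.4 CPM in lesion pools and at 4.32, 1.56 and 4.88 CPM in lesion-free pools. The groups overlapped in all 3 genes. Their log2 folds were 0.59 (AURKA), 0.48 (AURKB) and 0.92 (UBE2C), each with a 95% interval that spans 0. Without lesion pool 3 UBE2C had a log2 fold of 0.09 and AURKB one of 0.02, and without lesion pool 2 UBE2C had one of 1.74. Over the 7 tested genes of the mitotic machinery the median log2 fold was 1.45, all 7 were fitted higher and 0 were called. KIF11 and CENPF are among the 7 and were tested only together with their lesion pools, which favours a fold above 0. TPX2 and BUB1B, reached by identifier and described below, are not among the 7 and had log2 folds of -0.07 and 1.14. Groups did not overlap in 1 of 7, where 10.5% of all tested genes were so with lesion higher. An unadjusted p under 0.05 was reached by 1 of 7, where 6.49% of all tested genes did so with lesion higher.

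**Figure D2:**
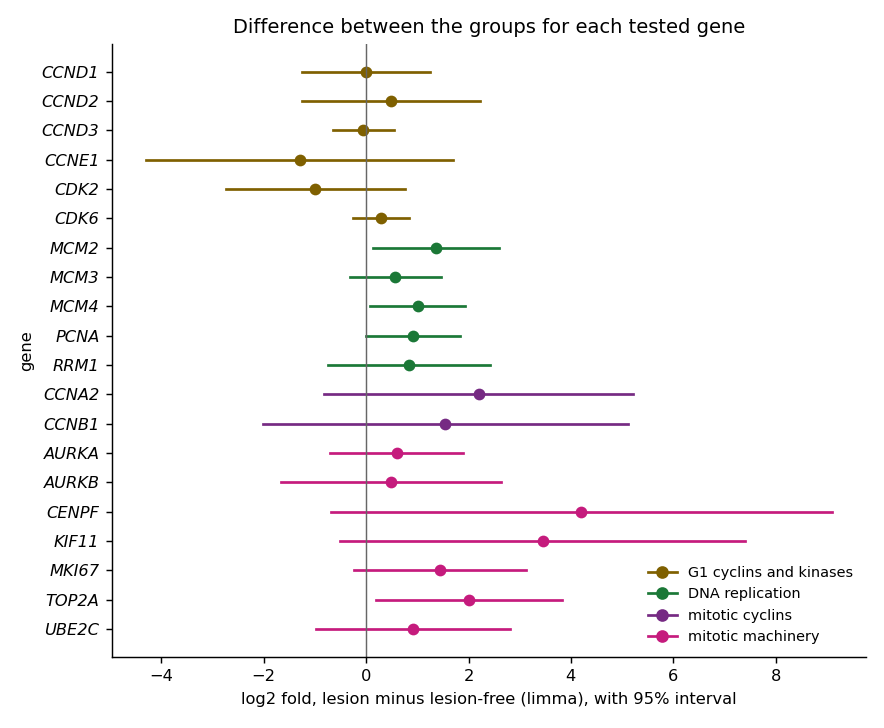
Each point is the log2 fold of 1 tested gene, lesion minus lesion-free, from limma on the horizontal axis, and the bar is its 95% interval, coloured by role. The points of the 14 replication and mitosis genes all lie above 0, and the intervals of MCM2, MCM4, PCNA and TOP2A lie wholly above it before any adjustment.

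The cyclins and kinases of the growth phase gave no common direction, with 2 of 6 fitted higher, 4 fitted lower, 0 called and a median log2 fold of -0.03. CCND3, cyclin D3, stood at 128, 165 and 199 CPM in lesion pools and at 223, 147 and 146 CPM in lesion-free pools. CDK6, its partner kinase, stood at 171, 128 and 163 CPM in lesion pools and at 139, 115 and 120 CPM in lesion-free pools. These were the most counted of the 21 genes, and their intervals were correspondingly narrow: the log2 fold was -0.06 (95% interval -0.66 to 0.54) for CCND3 and 0.30 (95% interval -0.25 to 0.84) for CDK6. A log2 fold of 1 in either direction lies outside the 95% interval of both genes.

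CCND1, cyclin D1, the D-type cyclin that growth factors induce in many cells, stood at 3.85, 24.04 and 24.1 CPM in lesion pools 1, 2 and 3 and at 13.2, 12.4 and 25.8 CPM in lesion-free pools. Lesion pool 1 was the lowest of all pools, and the mean levels were close, at 17.3 ± 11.7 and 17.1 ± 7.56 CPM (SD, n = 3 each). The log2 fold of -0.003 (95% interval -1.25 to 1.24) changed sign under 6 of the settings tried, and without lesion pool 1 it was 0.56. CCND2, cyclin D2, stood at 5.39, 5.45 and 7.77 CPM in lesion pools and at 0.971, 7.44 and 12.0 CPM in lesion-free pools. Its log2 fold was 0.48, and it turned to -0.60 without lesion-free pool 4, the pool with the lowest level.

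CCNE1, cyclin E1, which opens replication together with CDK2, had 0, 29 and 32 counts in lesion pools and 21, 68 and 20 counts in lesion-free pools. CDK2 itself had 4, 36 and 69 counts in lesion pools and 66, 63 and 51 counts in lesion-free pools. Both were lowest in lesion pool 1 and overlapped between the groups. Their log2 folds were -1.30 (95% interval -4.29 to 1.69) and -0.99 (95% interval -2.73 to 0.75), the largest on the lower side among these genes. Without lesion pool 1, the shallowest library, they were -0.20 and -0.52, and without lesion pool 3 they were -2.23 and -1.61.

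The replication and mitosis genes followed an order of the pools within each group. Among lesion pools, pool 1 was highest for 8 and pool 3 for 6 of the 14 tested genes, and pool 2 was lowest for 10. Among lesion-free pools, pool 6 was highest for 12, and pool 5 was lowest for 10. The summed level of the 5 replication genes was 138, 74.9 and 94.8 CPM in lesion pools 1, 2 and 3 and 55.5, 31.7 and 64.5 CPM in lesion-free pools 4, 5 and 6. The 10 mitosis genes together stood at 77.96, 30.3 and 90.6 CPM in lesion pools and at 19.5, 17.6 and 36.3 CPM in lesion-free pools. Lesion pool 2 thus lay above the lesion-free range for replication and inside it for mitosis. The 6 growth phase genes did not follow this order, with lesion pool 1 lowest for 5 and lesion pool 3 highest for 5 of them, and summed levels of 309, 328 and 404 against 385, 297 and 312 CPM.

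Markers of other cell types also differed between the pools, in part in another order than the cell cycle genes. The summed level of 11 macrophage markers was 3076, 1357 and 2828 CPM in lesion pools 1, 2 and 3 and 281, 211 and 158 CPM in lesion-free pools, so lesion pool 2 was lowest of its group here too, as it was for the mitosis genes. In lesion-free pools the order differed, since pool 6 was highest for the replication and mitosis genes and lowest for the macrophage markers. CD163 was at or under 1 CPM in all pools. The summed level of 8 smooth muscle markers was 43388, 61963 and 61478 CPM in lesion pools and 110992, 94545 and 96354 CPM in lesion-free pools, with 2 of 8 called lower. The 7 T cell markers summed to 9.82, 7.69 and 13.8 CPM in lesion pools and to 5.72, 2.52 and 2.95 CPM in lesion-free pools. Of 3 tested, 0 were called, and 5 of 7 were at 0 both in lesion pool 1 and in lesion-free pool 5. Endothelial markers summed to 441 to 579 CPM in lesion and 322 to 373 CPM in lesion-free pools, with 0 of 6 called. No marker tested from the adventitial fibroblast, adipocyte, nerve, lymphatic, red blood cell, neutrophil or B and plasma cell lists was called by limma, and MS4A1 and PAX5, which define B cells, were at 0 in all 6 pools. Of the 3 matched neutrophil markers, MMP9, a matrix protease that macrophages also make, stood at 267, 77.6 and 270 CPM in lesion pools and at 3.89, 0 and 2.14 CPM in lesion-free pools, and its groups did not overlap. Its log2 fold of 7.66 had an adjusted p of 0.151 (limma) and depends on the 0.5 added to each count, and lesion pool 2 was again the lowest lesion pool. The more restricted neutrophil markers S100A8 and S100A9 were at or under 1.34 CPM in every pool. The part of these cell types in the levels of the cell cycle genes was not tested. In bulk tissue, more dividing cells and more RNA of these genes per cell cannot be told apart.

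**Figure D3:**
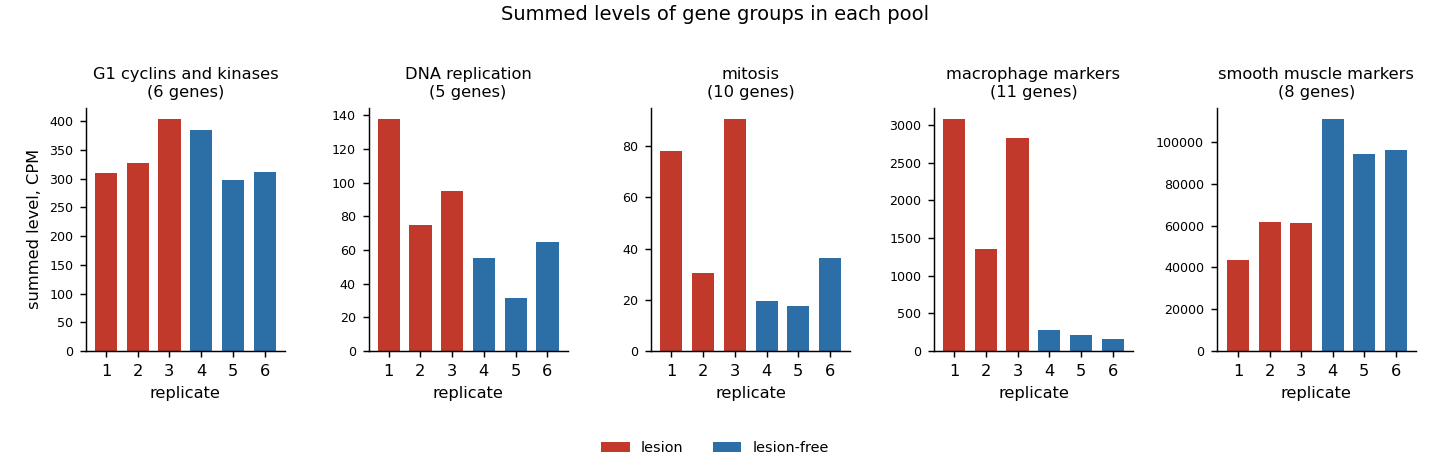
Bars give the summed CPM of 3 groups of cell cycle genes and of the macrophage and smooth muscle markers in each of the 6 pools, each panel with its own axis from 0. Lesion pool 2 has the lowest bar of the 3 lesion pools for replication, mitosis and macrophage markers, and lesion-free pool 6 has the highest bar of its group for replication and mitosis.

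Of the 15 listed symbols not found in the symbol column, 4 were reached through their gene identifier and lie outside the rule. CDK1, the mitotic kinase itself, entered under its older symbol CDC2, had 0, 15 and 26 counts in lesion pools and 0, 0 and 7 counts in lesion-free pools. BUB1, a kinase of the spindle checkpoint, had 0, 19 and 18 counts in lesion pools and 0 in every lesion-free pool. Both were too low to test. BUB1B, a checkpoint protein of the same family, had 21, 9 and 14 counts in lesion pools and 2, 4 and 16 counts in lesion-free pools, with a log2 fold of 1.14 (95% interval -2.10 to 4.38). TPX2, which activates Aurora kinase A on the spindle, stood at 42.0, 4.38 and 11.4 CPM in lesion pools and at 11.8, 9.35 and 11.4 CPM in lesion-free pools. Lesion pool 1 was highest and lesion pool 2 lowest, and the log2 fold was -0.07. The other 11 symbols, among them those of the inhibitors p21, p27 and p57, of CDK4 and of PLK1, were not matched and are not analysed here.

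The isoform table named 36 isoforms after the 21 genes, of which 32 had a count and 25 were tested. Of those tested, 1 of the isoforms named CCNB1-201 belongs to an entry that the reference names SLC30A5, a zinc transporter, and says nothing of cyclin B1. None was called by limma, where 0.45% of 12666 tested isoforms were. An unadjusted p under 0.05 was reached by 2, MCM4-201 and the MCM2-201 of the entry with the symbol MCM2. Both repeat the counts of their gene, and the share of all tested isoforms at that p is not given here. The other tested MCM2-201, of a further entry described below, had an unadjusted p of 0.667 (limma). In all but 4 of the genes the counts lay on 1 isoform, which repeats the gene. CDK6-001 held 96.5% to 99.3% of the counts of CDK6, and CCND3-001 held 62.2% to 79.0% of those of CCND3, in every pool. MKI67 and AURKA were assigned unevenly. MKI67-201 held 0, 0 and 100% of the MKI67 counts in lesion pools 1, 2 and 3 and 100, 0 and 41.9% in lesion-free pools, the rest being MKI67-202. AURKA-201 held 91.5, 100 and 62.8% of the AURKA counts in lesion pools and 100, 100 and 0% in lesion-free pools. The assignment of these genes switched between pools of the same group and did not separate lesion from lesion-free tissue.

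**Figure D4:**
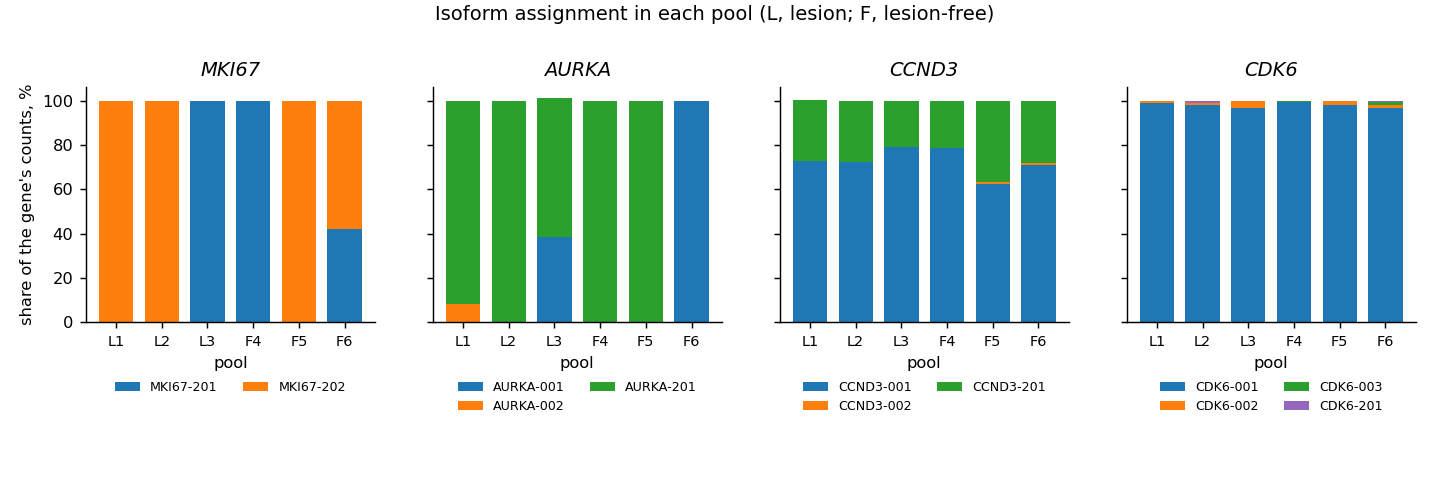
Stacked bars give the percent of each gene's counts on each of its isoforms in lesion pools 1 to 3 (L) and lesion-free pools 4 to 6 (F), and can pass 100 slightly because the deposited isoform and gene counts are rounded separately. MKI67 and AURKA switch isoform between pools of 1 group, while CCND3 and CDK6 keep the same leading isoform in all 6 pools.

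Some gene entries known only by an identifier carried an isoform with the name of a member. A further entry with an isoform named MCM2-201 stood at 12.7, 12.6 and 9.96 CPM in lesion pools and at 3.24, 13.8 and 19.1 CPM in lesion-free pools, with overlapping groups and a log2 fold of 0.27. When it was added to MCM2, the log2 fold of MCM2 became 0.72 with an adjusted p of 0.609 (limma), and the groups overlapped. The size of the MCM2 difference and the separation of its groups thus depend on which entry is read. Adding a further CENPF entry gave CENPF a log2 fold of 3.17.

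Other genes of the cycle were read from 5 lists. Of 23 tested further replication genes, 14 were fitted higher and 9 lower, 2 had groups that did not overlap with lesion higher (10.5% of all tested genes did), 0 were called by limma and 0 had an unadjusted p under 0.05. The median log2 fold was 0.26, and 0.01 to 0.29 when 1 pool was left out. BRCA1, which protects replicating DNA and repairs breaks, stood at 7.70, 13.8 and 11.5 CPM in lesion pools and at 3.67, 6.24 and 6.92 CPM in lesion-free pools, with a log2 fold of 1.07. UHRF1, which passes DNA methylation on to the new strand, had a log2 fold of 3.67 that rests on lesion-free pools at 0, 0 and 1.83 CPM. LIG1, the ligase of lagging-strand synthesis, had a log2 fold of -0.41 and RFC5, a subunit of the clamp loader of PCNA, one of -0.27, and groups overlapped in both. The summed levels of the 27 matched genes of this list overlapped, at 355 to 441 CPM in lesion and 328 to 493 CPM in lesion-free pools.

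Of 30 tested further mitosis genes, 25 were fitted higher and 5 lower, and 8 had groups that did not overlap with lesion higher and 1 with lesion lower, where 10.5% of all tested genes did not overlap with lesion higher. The median log2 fold was 0.49, with 1.22 without lesion pool 2 and 0.22 without lesion pool 3. By limma 0 were called, and an unadjusted p under 0.05 was reached by 4 on the higher and 1 on the lower side. Of all 11673 tested genes, 757 and 484 did so. Some of the 25 fitted higher were tested only together with their lesion pools, which favours a fold above 0. CENPE is one of them, with 0, 0 and 14 counts in lesion-free pools, and it is also among the 8. The summed levels of the 38 matched genes of this list overlapped, at 479 to 655 CPM in lesion and 477 to 572 CPM in lesion-free pools. STMN1, which destabilises microtubules, stood at 64.7, 26.8 and 36.0 CPM in lesion pools and at 18.6, 22.9 and 15.7 CPM in lesion-free pools. Its groups did not overlap, and its log2 fold of 1.00 (95% interval 0.19 to 1.82) had an adjusted p of 0.340 (limma). ANLN, the scaffold of the cytokinetic ring, stood at 24.4, 11.4 and 27.2 CPM in lesion pools and at 7.12, 7.67 and 10.6 CPM in lesion-free pools, with a log2 fold of 1.17 and an adjusted p of 0.406 (limma). On the lower side, TUBB4B, a beta-tubulin, stood at 138 ± 37.2 against 210 ± 38.5 CPM (SD, n = 3 each), with a log2 fold of -0.62 and groups that did not overlap. TROAP, a spindle protein, was at or under 2.52 CPM in every pool.

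Of 23 tested regulators of the cycle, 11 were fitted higher and 12 lower, with a median log2 fold of -0.04. By limma 0 were called, with 2 higher and 1 lower at an unadjusted p under 0.05. Of all 11673 tested genes, 757 were higher and 484 lower at that p. Groups did not overlap in 3 with lesion higher and 2 with lesion lower, against 1220 and 1047 of all tested genes. RBL1, the retinoblastoma relative p107, stood at 13.1, 5.81 and 6.76 CPM in lesion pools and at 0.216, 0.36 and 2.54 CPM in lesion-free pools, with groups that did not overlap, a log2 fold of 3.39 and an adjusted p of 0.356 (limma). WEE1, the kinase that holds back mitotic entry, had a log2 fold of 1.09, also with groups that did not overlap. MYC, the growth-promoting transcription factor, stood at 5.58, 19.8 and 29.4 CPM in lesion pools and at 28.3, 70.6 and 39.4 CPM in lesion-free pools. The log2 fold of MYC was -1.28 (95% interval -2.38 to -0.18) with an adjusted p of 0.385 (limma), and lesion pool 3 lay just inside the lesion-free range. PKMYT1, a kinase related to WEE1, was at or under 2.64 CPM in every pool.

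Of 14 tested growth arrest genes and targets of p53, 7 were fitted higher and 7 lower, with a median log2 fold of -0.07. By limma 0 were called, with 1 higher and 2 lower at an unadjusted p under 0.05, against 757 and 484 of all 11673 tested genes. Groups did not overlap in 1 with lesion higher and 1 with lesion lower, against 1220 and 1047 of all tested genes. TP53INP1, a stress protein induced by p53, stood at 40.8 ± 5.66 against 22.4 ± 6.20 CPM (SD, n = 3 each), with groups that did not overlap and a log2 fold of 0.86 (adjusted p 0.352, limma). GADD45B, a stress-induced growth arrest gene, had a log2 fold of -1.004 and BTG2, an antiproliferative gene, one of -0.67, and groups overlapped in both. SESN1, a stress-induced sestrin, had a log2 fold of 0.30.

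Growth factors and their receptors were the only one of these 5 lists with called genes, 2 of 15 tested, both higher, where 1.05% of all tested genes were called. The count was 1 without lesion pool 1, lesion-free pool 5 or lesion-free pool 6. The median log2 fold was 0.82, and 0.30 without lesion-free pool 4. CSF1R, the receptor for the macrophage growth factor CSF1, stood at 75.5, 79.3 and 106 CPM in lesion pools and at 20.3, 19.3 and 24.5 CPM in lesion-free pools. It was 4.05-fold higher in lesion pools, with a log2 fold of 2.02 (95% interval 1.35 to 2.68) and an adjusted p of 0.0037 (limma), and it is also one of the macrophage markers. CSF2RB, the shared receptor chain for GM-CSF, interleukin 3 and interleukin 5, stood at 99.5, 40.5 and 88.4 CPM in lesion pools and at 21.7, 6.12 and 7.02 CPM in lesion-free pools. Its log2 fold was 2.80 with an adjusted p of 0.0189 (limma), and the call was lost without lesion pool 1 (0.065), lesion-free pool 5 (0.0878) or lesion-free pool 6 (0.0948). FGFR1, a receptor of fibroblast growth factors, stood at 424 ± 125 against 676 ± 65.4 CPM (SD, n = 3 each), with groups that did not overlap, a log2 fold of -0.72 and an adjusted p of 0.376 (limma). IL34, the other ligand of CSF1R, was at or under 3.24 CPM in every pool, with a log2 fold of -1.44.

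**Figure D5:**
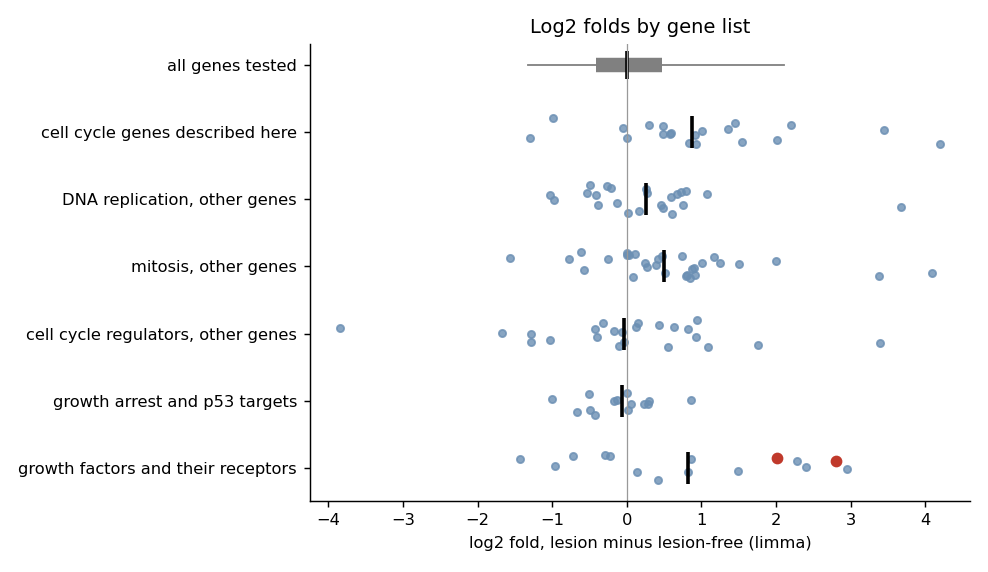
Points are the limma log2 folds of tested genes, lesion minus lesion-free, on the horizontal axis, by gene list; black bars are medians, red points are called genes, and the grey box and line give the spread of all tested genes. The cell cycle genes described here have a median of 0.88 and no red point, and the 2 red points are CSF1R and CSF2RB.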

How the data were processed

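Per the labels' protocols, RNA came from powdered tissue over a column, and sequencing libraries from a stranded kit for total RNA. The authors deposited whole-number counts per gene and per isoform, 1 column per pool, with commas between groups of digits, which were removed. RSEM 1.3.0 and edgeR are named in the submitters' processing notes, with no role. No aligner, genome build or annotation is given in the sources read. The columns as deposited, with their commas, were not recorded as plain counts, and the edgeR quasi-likelihood test was not run. In its place, limma 3.58.1 (R 4.3.3) with voom weights and robust moderation was applied to the whole-number counts left without commas. Tested genes had 15 counts in all and, in 3 pools, at least 1.00 CPM, which is 10 counts at the median library size. Scaling was by trimmed mean of M values, and voom added 0.5 to each count. All p-values are two-sided. Pools of a group differed beyond sampling noise (chi-square per degree of freedom 22.7 to 97.7), so none repeats another. The script was tested on simulated data.

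The cell cycle genes, the 5 lists, the marker lists and the tests were chosen with earlier results of these data known. All genes found are given, with full statistics for the 6 with the smallest p, and from each list the called genes and the 2 smallest p in each direction. List genes were named by symbol, identifier or synonym. Genes that share reads with near-identical copies are uncertain. Alternatives covered scaling, filter, weights, variance model, moderation, duplicate symbols and leaving out each pool. The addition of further MCM2 and CENPF entries was chosen after seeing the data.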

Additional observations from a re-analysis of the deposited data

How the results depend on the processing

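Of 295 values of the 20 tested cell cycle genes under 15 alternatives, 283 kept their direction and stayed past no threshold, and 12 changed sign. The sign changes were those of CCND1, CCND2 and CCND3, and the other 17 genes kept their sign under every alternative in which they were tested. CCND1 (-0.003) became 0.20 with plain library totals, 0.015 without the filter, 0.0093 with a stricter filter and 0.26 with sample quality weights, and it ranged from -0.30 to 0.56 (lesion pool 1 left out) as pools were left out in turn, with 0.34 in the absence of lesion-free pool 6. CCND2 (0.48) became -0.2575 with quality weights and ranged from -0.60 (lesion-free pool 4 left out) to 1.28. CCND3 (-0.06) became 0.12 with library totals, 0.17 with quality weights, and ranged from -0.20 to 0.15 (lesion-free pool 4 left out), with 0.11 in the absence of lesion pool 1. Of the list genes, TROAP ranged from -2.44 to 0.57 (lesion pool 2 left out) and SESN1 from -0.0137 (lesion pool 1 left out) to 0.64. The cause was not tested. Plain library totals moved the median log2 fold of all tested genes to 0.16, and that of the cell cycle genes to 1.00. The median of the 14 replication and mitosis genes lay between 0.62 (lesion-free pool 5 left out) and 1.67 (lesion pool 2 left out).

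Over all genes, 113 called higher became 171 without the filter, 213 with quality weights and 201 with limma-trend on log2(CPM + 1), and 54 to 143 when 1 pool was left out, lowest in the absence of lesion-free pool 6 (54) or 5 (63). The 9 called lower became 17, 40 and 14 under the same settings, and 3 to 33 when 1 pool was left out. Called cell cycle genes numbered 0 under each alternative run, and their isoforms 0 under each alternative fitted to the isoform table, which leaves out the 2 that join gene entries. No paired analysis was possible because the groups share no pool number. With 3 pools per group and genes near the 3-count floor, differences among CCNB1, CENPF, KIF11, CCNA2 and CCNE1 were measured only within wide intervals, and lesion pool 1 was the shallowest library.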
